A study of Rattus norvegicus with 10 samples.

Results

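Fam111a, Fabp12, Cdh8, Iqcm and Oxnad1 were selected on their measured levels, which fell into separate high and low arrays among neonatal rat testes. They are 5 of the 15154 genes that the array names, and they were read by 9 of its 30367 probes, taken as every non-control probe whose RefSeq transcript belongs to these genes. The separation into levels is what chose the genes, so levels, steps and the counts of high and low arrays are given as a description, with no test. Sire group, slide and sire code played no role in the choice and were tested.

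RNA from testes of male pups on postnatal day 6 was measured on 10 one-colour arrays, 1 for each sire code. All pups came from a cross of Brown Norway fathers with Sprague Dawley mothers. The fathers had received saline or BEP for 9 weeks and then recovered for 9 weeks, and the pups themselves are not described as treated. BEP is the usual short form of a chemotherapy for testicular cancer (bleomycin, etoposide and cisplatin), although the labels do not spell it out. A letter in the sire code, C for 5 arrays and T for 5, gave the groups, named C1 to C5 and T1 to T5. That C stands for saline and T for BEP is inferred, as no label says so. The design text mentions 2 testes, and how many pups an array represents is not stated in the labels, so p-values measure the spread between these arrays. Brown Norway is an inbred strain and Sprague Dawley an outbred stock, so pups of such a cross share the paternal strain's alleles and can differ in what they receive from the mother. No genotype was measured, and the part of inherited differences in the levels was not tested.

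Fam111a encodes a nuclear serine protease that binds the sliding clamp PCNA at replication forks and restricts the growth of some viruses. Fabp12 belongs to the fatty acid-binding proteins, small carriers of lipids in the cytoplasm, and lies in a cluster with other genes of that family. Cdh8 is a type II classical cadherin, a calcium-dependent adhesion molecule best known from the nervous system. Iqcm carries an IQ motif, a sequence that binds calmodulin in many proteins, and Oxnad1 is named for its NAD-binding oxidoreductase domain.

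Promoter sequences were taken from RefSeq on the GRCr8 assembly as windows of 300 bases around the start of the gene, and 4 of the 5 genes had an entry. The windows of Fam111a and Iqcm are shown because these genes were read by several probes. Capitals mark matches, on either strand, to the GC box GGGCGG and the CCAAT box CCAAT, and TATAAA was searched as well.
Fam111a, chr1:219065389-219065688, plus strand: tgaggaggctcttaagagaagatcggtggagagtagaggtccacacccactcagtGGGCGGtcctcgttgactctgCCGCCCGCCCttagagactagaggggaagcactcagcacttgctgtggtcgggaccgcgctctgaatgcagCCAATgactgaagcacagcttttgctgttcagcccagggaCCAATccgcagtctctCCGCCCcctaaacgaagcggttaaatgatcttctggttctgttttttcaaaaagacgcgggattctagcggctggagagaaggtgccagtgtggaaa
Iqcm, chr19:23262269-23262568, minus strand: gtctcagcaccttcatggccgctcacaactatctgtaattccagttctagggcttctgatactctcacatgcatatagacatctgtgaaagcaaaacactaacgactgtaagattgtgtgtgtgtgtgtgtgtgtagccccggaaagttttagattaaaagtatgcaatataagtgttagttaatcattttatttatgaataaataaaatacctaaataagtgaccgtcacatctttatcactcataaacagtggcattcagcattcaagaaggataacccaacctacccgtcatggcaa
The Fam111a window held 4 GC boxes, of which 2 overlap, and 2 CCAAT boxes, with a GC content of 55.3%. The Iqcm window held none of the motifs and had a GC content of 38.0%. The Cdh8 window held 1 GC box and 1 CCAAT box at 60.3% GC, and the Oxnad1 window held 1 GC box at 50.7% GC. Of all 33469 windows of 300 bases, 33.1% held a GC box, 37.5% a CCAAT box and 14.2% a TATAAA match.

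Levels are given as log2 of the background-subtracted signal minus the log2 of that array's 75th percentile, so a value of -3.00 lies 3.00 log2 units below that percentile. The 75th percentile itself ran from 1525.3 signal units on C1 to 2685.8 on C3, and 0 spots were saturated. Slide 1 held C1, C2, C3, T1 and T2, and slide 2 held C4, C5, T3, T4 and T5. Markers of the labelled tissue, of Sertoli cells (7 measured genes), germ cells (8) and Leydig cells (5), were all well above background on all 10 arrays, and the remaining Leydig marker, Lhcgr, was too dim to be tested. A step is the widest gap between neighbouring arrays once the arrays are ordered by a probe's level, and it divides them into a low and a high side. Over 21869 tested probes with a value on every array the median step was 0.16 log2 units, and 99% of probes had a step below 1.07.

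The levels of Fam111a separated C4, T1 and T5 from the other 7 arrays. Probe A_64_P065265, with the higher mean of the 2 Fam111a probes, gave -2.86 on C1, -2.81 on C2, -2.64 on C3, -0.90 on C4 and -2.72 on C5. On the T arrays it gave -0.82 on T1, -2.86 on T2, -3.01 on T3, -2.86 on T4 and -0.65 on T5. In signal units, the high arrays read 1050 on C4, 1080 on T1 and 1570 on T5, and the low arrays read from 211 on C1 to 432 on C3. The C and T arrays overlapped, with high arrays in both. The step was 1.73 log2 units, or 3.32-fold, against a range of 0.37 within the low arrays and 0.25 within the high arrays.

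The other Fam111a probe, A_44_P304009, divided the arrays in the same way. It gave -2.99, -3.25, -2.72, -0.73 and -2.97 on C1 to C5, and -0.59, -3.00, -3.27, -3.08 and -0.33 on T1 to T5. Its step was 1.99 log2 units, or 3.97-fold. The probes lie at separate places on the array, in row 317 and row 293, and no spot of these or of the other member probes carried an outlier flag. Both probes were well above background on all 10 arrays, so each side of the Fam111a division is a measured level. The cells behind the levels are not known: in whole testes, fewer cells of a type and less RNA per cell cannot be told apart.

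Fabp12 was low on C4 and T1 only. Its probe, A_43_P19742, gave -3.21 on C1, -2.92 on C2, -3.07 on C3, -5.94 on C4 and -2.98 on C5. On the T arrays it gave -5.61 on T1, -2.76 on T2, -2.92 on T3, -2.59 on T4 and -2.76 on T5. Each group thus held 1 low array and 4 high arrays. The low arrays read 31.9 signal units on C4 and 39.1 on T1, where the lowest high array, C1, read 164. The step was 2.39 log2 units, or 5.25-fold, against a range of 0.33 within the low side and 0.63 within the high side. With normexp background correction the same arrays were low and the step was 1.35.

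The Fabp12 probe was printed in 2 spots, whose values differed by 0.03 to 0.33 log2 units on an array, with the widest difference on T1. It was well above background on all 10 arrays, the low ones included. C4 and T1 also had the highest mean over the 7 measured Sertoli cell markers, at 0.12 and 0.08 log2 units above the markers' average, where the other arrays ran from -0.21 to 0.07. The summed level of these markers, in multiples of the 75th percentile, was 39.0 to 48.5 on the C arrays and 35.0 to 43.8 on the T arrays, and all 7 were well above background throughout. Of 11 marker lists, the Sertoli cell list was the only one whose mean separated the low from the high arrays of Fabp12. The margin was narrow, with 0.080 on T1 and 0.071 on C5, and none of the 7 markers set C4 and T1 apart by its own step. With 11 lists read, such a match cannot tell a link from chance. The summed level of the Sertoli cell markers did not separate the sides, at 43.8 to 44.4 on the low and 35.0 to 48.5 on the high arrays. The 7 duct epithelium markers came close, with means of 0.32 on C4 and 0.31 on T1 that only T3, where Fabp12 was high, exceeded at 0.33. By each marker's own step, C4 and T1 were both on the high side for Cdh1, Krt8, Krt19 and Pax8. They were on opposite sides for Epcam, Krt18 and Pax2. The part of either cell type in the Fabp12 levels was not tested.

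**Figure D1:**
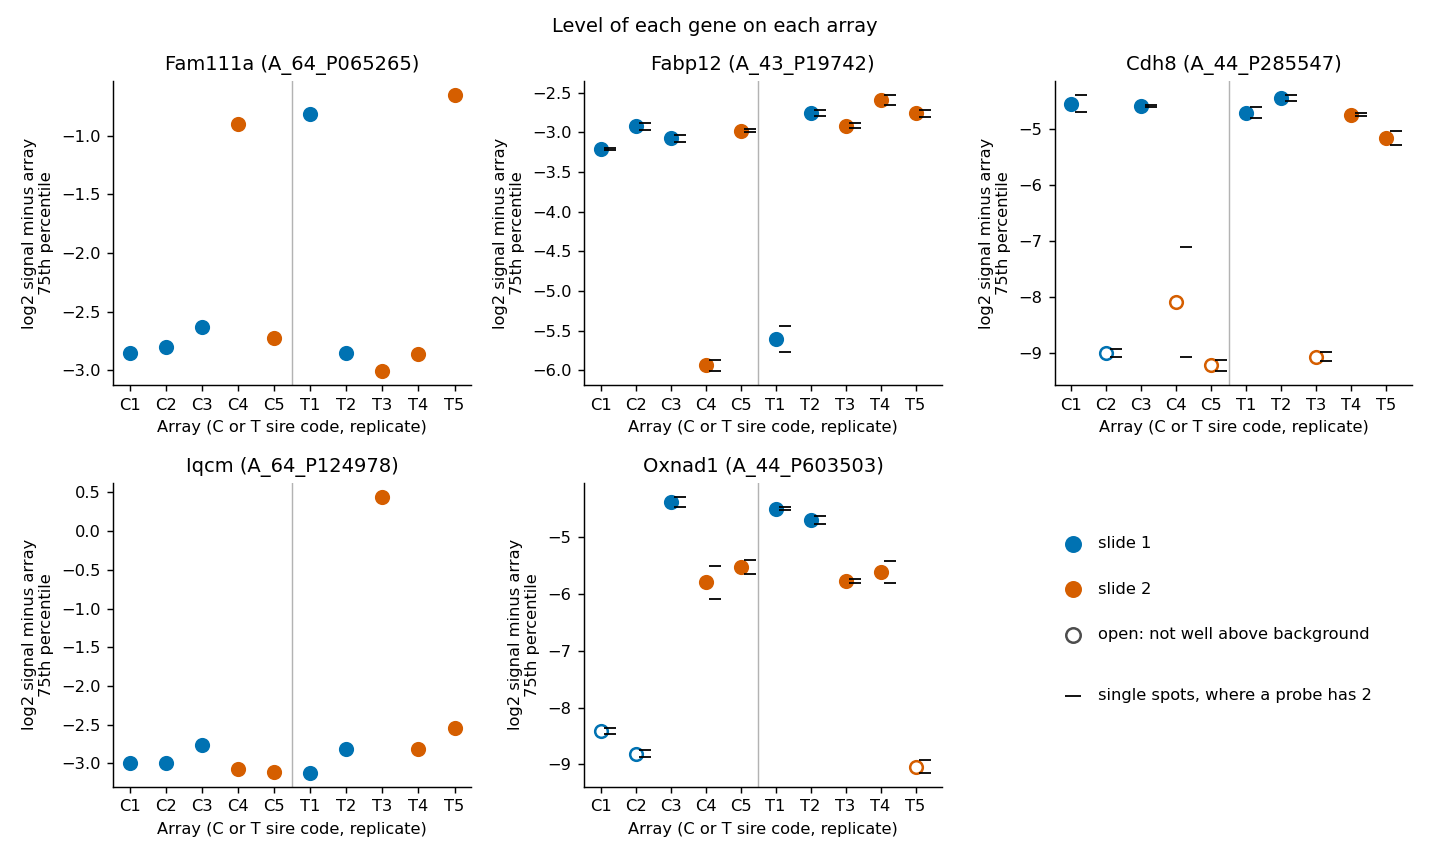
Level of each gene on each of the 10 arrays, as log2 signal minus the array's 75th percentile, with arrays C1 to C5 left and T1 to T5 right of the grey line and colour for the slide. Open circles are arrays on which the probe was not well above background, and dashes are the single spots of probes printed in 2 spots. Every gene except Iqcm has high and low arrays in both sire groups and on both slides, while Iqcm is high on T3 alone.

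Cdh8 was measured well above background on 6 arrays and not on the other 4. Probe A_44_P285547 gave -4.55 on C1, -9.00 on C2, -4.59 on C3, -8.09 on C4 and -9.22 on C5. On the T arrays it gave -4.71 on T1, -4.44 on T2, -9.06 on T3, -4.74 on T4 and -5.16 on T5. C2, C4, C5 and T3 were the arrays on which it was not well above background, so their values are not measured levels and have no order. The 6 measured arrays read 65.3 to 111 signal units, and the groups overlapped, with 2 C and 4 T arrays at the measured level.

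The step of Cdh8 as measured was 2.94 log2 units. The step rests on values below background there, and with normexp it was 0.71. With each dim array set at its lowest signal of any probe well above background, the step was 3.15-fold. This is not a strict bound, since a probe can exceed that signal and still fail the call. On C2 that lowest signal was 20.91 units, and an Iqcm probe not well above background read 26.6. The 2 spots of Cdh8 differed by at most 0.29 log2 units on the 6 measured arrays and by 1.96 on C4, where the probe was not well above background. The mean over the 5 measured skeletal muscle markers ran from -0.24 to -0.04 on the low arrays and from -0.07 to 0.26 on the high arrays, and the sides overlapped only in that C2 lay above C3. The summed level of these markers was 0.23 to 0.40 times the 75th percentile on the C arrays and 0.23 to 0.42 on the T arrays. Among these markers, the muscle actin Acta1 had a slide 2 minus slide 1 difference of -1.44 log2 units (limma adjusted p = 1.34e-05), and 3 of the 4 low Cdh8 arrays were on slide 2. The summed level was 0.23 to 0.33 on the low and 0.26 to 0.42 on the high Cdh8 arrays. The part of muscle in the Cdh8 levels was not tested.

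Iqcm stood apart on T3 alone. Probe A_64_P124978 gave -3.00 on C1, -3.00 on C2, -2.77 on C3, -3.07 on C4 and -3.11 on C5. On the T arrays it gave -3.12 on T1, -2.81 on T2, 0.45 on T3, -2.82 on T4 and -2.54 on T5. T3 read 2960 signal units, and the other 9 arrays read 191 to 426. The step was 2.99 log2 units, or 7.92-fold.

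The other 3 Iqcm probes did not all follow. Probe A_64_P022961 gave -0.44 on T3, or 1600 signal units, and -3.75 to -3.08 on the other 9 arrays, a step of 2.64 log2 units or 6.24-fold. Probe A_64_P077896 gave -5.42 on T3, within its range of -5.82 to -5.22 over all 10 arrays, and its step of 0.33 set T1 apart as the lowest. Probe A_64_P249426 was well above background on 4 arrays, too few to be tested, and gave -6.70 on T3 within a range of -7.05 to -6.37. The step on T3 was therefore seen by 2 of the 4 Iqcm probes, which were printed in row 358 and row 54 of the array. Where each probe lies in the Iqcm transcripts is not stated in the files used here.

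T3 also had the highest mean of the 7 duct epithelium markers, at 0.33 log2 units, just above C4 at 0.32 and T1 at 0.31, where Iqcm was low. Their summed level was 4.97 to 6.08 times the 75th percentile on the C arrays and 5.14 to 6.61 on the T arrays. The markers did not agree on T3. By each marker's own step, T3 was on the high side for Krt8, Krt18, Krt19 and Pax8. It was on the low side for Epcam, Cdh1 and Pax2. Krt19 and Pax8 had the widest ranges of these markers, at 2.07 and 1.93 log2 units, and so weigh most in the mean. Duct epithelium was the only list of 11 whose mean set T3 apart. With 11 lists, a single array can be highest in 1 of them without a link, so this match cannot tell a link from chance. The summed level of the 4 measured endothelial markers was also highest on T3, at 2.94 against 2.22 to 2.83 on the other arrays, while their mean was not. The part of either cell type in the Iqcm level was not tested.

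**Figure D2:**
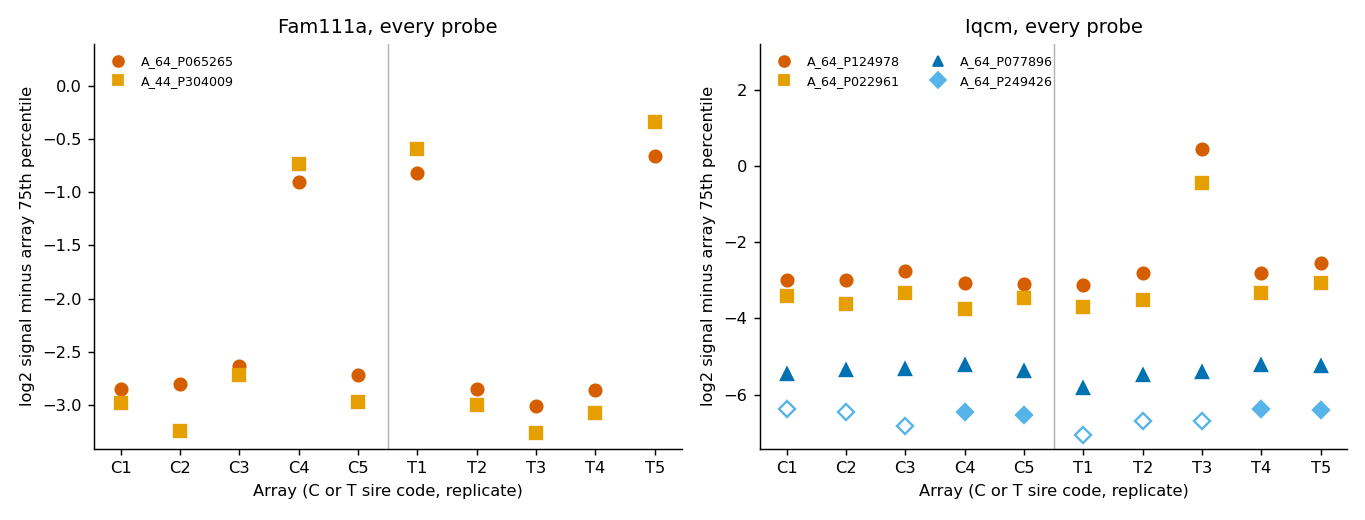
Every probe of Fam111a (2 probes) and Iqcm (4 probes) on each array, as log2 signal minus the array's 75th percentile, with open symbols where a probe was not well above background. Both Fam111a probes are high on C4, T1 and T5, while 2 of the Iqcm probes are high on T3 and the other 2 are not.

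Oxnad1 was measured on 7 arrays and was not well above background on the other 3. Probe A_44_P603503 gave -8.42 on C1, -8.81 on C2, -4.38 on C3, -5.80 on C4 and -5.54 on C5. On the T arrays it gave -4.50 on T1, -4.70 on T2, -5.78 on T3, -5.61 on T4 and -9.04 on T5. C1, C2 and T5 were not well above background, and the groups overlapped, with low arrays in both. The step between these 3 arrays and the rest was 2.61 log2 units by the values below background. It was 1.46-fold (0.55 log2 units) once the dim arrays were set at the lowest signal well above background, which is not a strict bound.

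A gap of 0.84 log2 units, or 1.79-fold, lay within the 7 measured Oxnad1 arrays, which spanned 1.42 log2 units. C3, T1 and T2 lay above it, at 80.8 to 129 signal units, and C4, C5, T3 and T4 lay below it, at 35.1 to 53.5. The upper 3 arrays were all on slide 1 and the lower 4 all on slide 2, whereas the dim arrays C1 and C2 were on slide 1 and T5 on slide 2. The 2 spots of Oxnad1 differed by 0.06 to 0.59 log2 units on the 7 measured arrays. Whether the gap exceeds the spread between testes was not tested.

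The steps of these genes were compared with those of all tested probes as a description, since the genes were chosen for them. Counted from the widest, the step of Iqcm ranked 14 of 21869, that of Fabp12 26 and that of Fam111a 55. Cdh8 and Oxnad1 are given no rank, since their low arrays were not well above background. With those arrays set at the lowest signal well above background, their steps were 1.65 and 0.55 log2 units. A step of at least 1 log2 unit was seen in 275 probes (1.26%), of which 118 had at least 2 arrays on each side. A step of at least 2 log2 units was seen in 36 probes (0.165%), of which 9 had at least 2 arrays on each side. Fabp12 was among those 9 with every array measured, whereas Cdh8 and Oxnad1 were among them only by values not well above background. In the other 27 probes with so wide a step a lone array stood apart, and it was T4 in 14 of them (alone low in 12 and alone high in 2). T3 alone was high in 3 of the 27, 2 of which were the Iqcm probes. None of the divisions of the 5 genes set T4 apart.

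**Figure D3:**
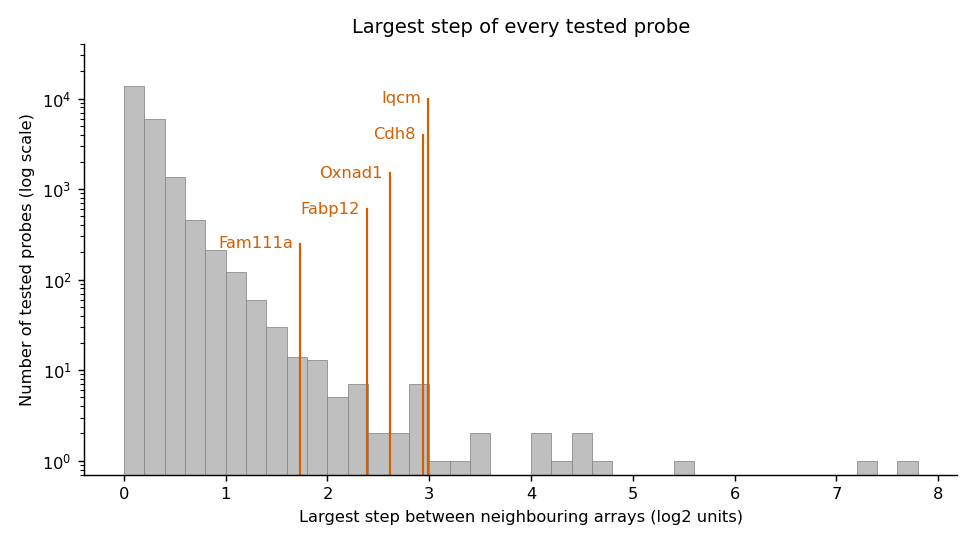
Number of tested probes, on a log axis, by the widest step between neighbouring arrays in log2 units, over 21869 probes. Orange lines mark the probe that stands for each gene, at 1.73 for Fam111a, 2.39 for Fabp12, 2.61 for Oxnad1, 2.94 for Cdh8 and 2.99 for Iqcm, against a median step of 0.16. The lines of Oxnad1 and Cdh8 rest on values not well above background. With those arrays set at the lowest signal well above background, their steps are 0.55 and 1.65.

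No tested probe of these genes passed the test between sire groups, which had little reach for their levels. The high arrays numbered 1 for Iqcm, 3 for Fam111a, 6 for Cdh8, 7 for Oxnad1 and 8 for Fabp12, against 5 arrays a group. A division that sets 1 or 2 arrays apart cannot separate such groups, so the test cannot decide whether those levels follow group. With limma, 0 of 21891 probes differed between T and C at an adjusted p under 0.05 (0%), and 869 (3.97%) had an unadjusted p under 0.05. Of the 8 tested probes of these genes, 0 were called and 0 had C and T arrays that did not overlap, where 0.722% of all probes had groups without overlap. The adjusted p was 0.9985 for each of the 8 probes in this fit. The T minus C difference of Fam111a was 0.34 ± 0.57 log2 units (SE, n = 5 and 5) with probe A_64_P065265 and 0.48 ± 0.70 with the other, with 95% confidence intervals that reached up to 1.60 and 2.02. Mean levels for A_64_P065265 were -2.38 ± 0.83 (SD) in C and -2.04 ± 1.19 in T.

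The intervals of the other genes for T minus C were wide as well. Fabp12 differed by 0.30 log2 units, with a 95% confidence interval from -1.27 to 1.87. For Cdh8 the difference was 1.47, with an interval from -1.15 to 4.09, and it rests on arrays that were not well above background. Oxnad1 differed by 0.66, with an interval from -1.63 to 2.95, and it too includes dim arrays. For Iqcm the difference was 0.82, from -0.46 to 2.10, with probe A_64_P124978, and -0.09, from -0.33 to 0.15, with probe A_64_P077896. Apart from the last Iqcm probe, every interval of these genes reached a T level at least 1.60 log2 units above C, so 5 arrays a group bound a group difference only loosely. Single arrays moved these differences: without T3 that of Iqcm was 0.17 (A_64_P124978) or 0.11 (A_64_P022961), and without C4 that of Fabp12 was -0.28. Oxnad1 ran from 0.11 without C2 to 1.44 without T5, and Cdh8 from 0.93 without C5 to 2.33 without T3. Fam111a (A_64_P065265) ran from -0.0024 without T5 to 0.71 without C4. Exact two-sided permutation tests over all 252 ways of assigning the arrays gave p from 0.127 for Iqcm to 0.817 for Fam111a. The smallest p, 0.00794, needs the 5 highest arrays in 1 group. No gene's levels divide 5 arrays from 5, so the levels alone could not reach it.

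None of the tested probes passed the test between slides, although many other probes did. Between slides, limma called 2521 of 21891 probes (11.5%), and 11.3% of probes had slides without overlap. None of the 8 tested probes was called or free of overlap between slides, so these genes showed no more slide calls than the background. The uneven divisions of their levels limit this test as they do that of the groups. The difference of slide 2 minus slide 1 was -1.80 ± 1.13 log2 units (SE) for Cdh8 (limma adjusted p = 0.3509), which includes 4 arrays not well above background and shrank to -0.62 with normexp background correction. It was 0.36 for Fam111a with probe A_64_P065265 (adjusted p = 0.7333), 0.08 for Fabp12 (0.9573) and -0.19 for Oxnad1 (0.9292). The Oxnad1 value averages in the 3 dim arrays, while its 7 measured arrays divided by slide as described above. For Iqcm it was 0.72 with A_64_P124978 (adjusted p = 0.4822) and 0.19 with A_64_P077896 (0.2192). Exact two-sided permutation tests gave p from 0.0556, for Iqcm probe A_64_P077896, to 0.968 for Oxnad1.

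Within slides the T minus C difference of several genes changed sign. Fabp12 was at -1.11 log2 units within slide 1, which holds the low array T1, and its difference over both slides was 0.30. Fam111a was at -0.36 within slide 2 and Oxnad1 at -1.14 within slide 2. T minus C was 2.81 log2 units higher on slide 2 than on slide 1 for Fabp12, and for Oxnad1 the same contrast was -3.74. No member passed the limma test of this interaction, with adjusted p of 0.9916 to 0.995. The last number of the sire code, 2 on C5, T4 and T5 and 1 on the other 7 arrays, has no stated meaning. All 3 arrays with the number 2 are on slide 2, and slide was not a term of this fit. Of all probes, 4903 (22.4%) had an unadjusted p under 0.05 and 0.0137% (3) were called between these codes by limma, and none of the 8 tested probes was among them. Fabp12 was high on all 3 arrays with the number 2, at -2.77 ± 0.20 (SD) against -3.78 ± 1.37 on the other 7, and the interval of the difference ran from -0.58 to 2.58 log2 units (limma adjusted p = 0.4302).

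**Figure D4:**
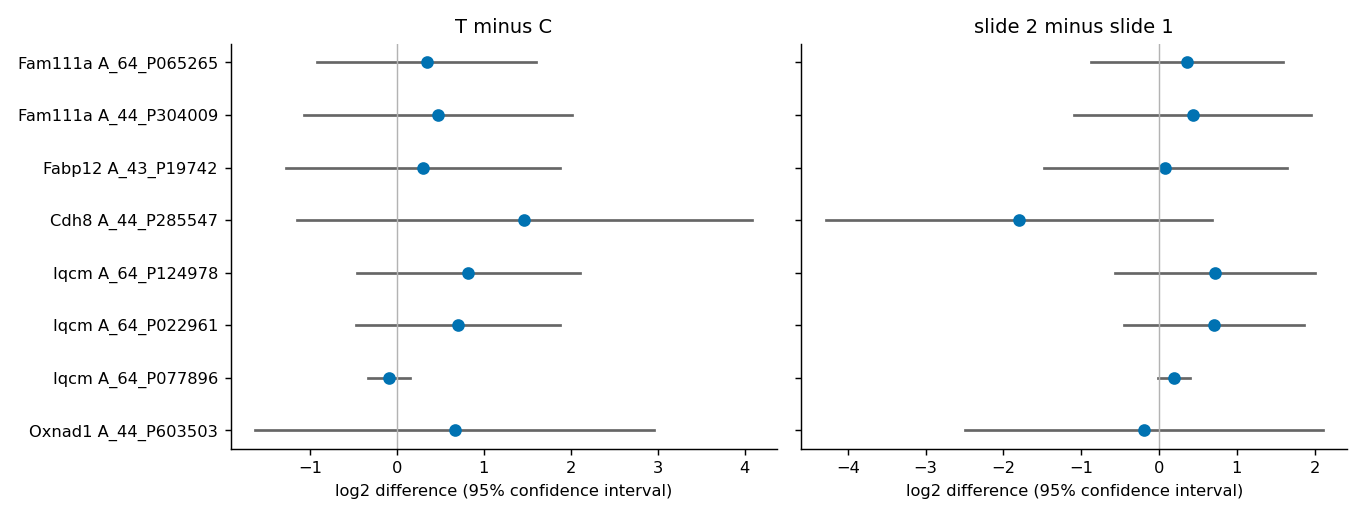
Difference in log2 units with its 95% confidence interval from limma for each of the 8 tested probes, T minus C on the left and slide 2 minus slide 1 on the right. Every interval includes 0, and the intervals of Cdh8 and Oxnad1 are the widest.

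The genes were then set against one another, array by array, with no test since the levels chose them. Fam111a and Fabp12 stood on opposite sides on 9 of 10 arrays. C4 and T1 were high for Fam111a and low for Fabp12, and 7 arrays were low for Fam111a and high for Fabp12. The exception was T5, which was high for both. Fam111a was low on 7 arrays and Fabp12 high on 8, so many arrays stand on opposite sides by these counts alone. Fam111a and Iqcm stood on the same side on 6 arrays, as did Fabp12 and Cdh8. The other pairs shared a side on 3 to 5 of 10 arrays, as Cdh8 did with Oxnad1 on 5 and with Iqcm on 3. Over all 5 genes the 10 arrays showed 8 patterns, and C3, T2 and T4 shared the same one: low for Fam111a and Iqcm and high for Fabp12, Cdh8 and Oxnad1. These 3 arrays include both sire groups and both slides.

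Other probes that divided the arrays as these genes did mostly had small steps. The Fam111a division was shared by 20 other probes beyond its own, and the widest step among them was 0.24 log2 units, for Hgf, a growth factor. The Cdh8 division was shared by 12 other probes with a widest step of 0.33, for Grip1, a scaffold protein that binds glutamate receptors, whose other probe also divided the arrays this way with a step of 0.15. The Oxnad1 division was shared by 12 probes with a widest step of 0.33, for Hus1, a subunit of a DNA damage checkpoint clamp, which went the opposite way. The Fabp12 division was shared by 88 probes, 4 of them with a step of at least 0.5. The widest, 1.08, belonged to a probe without a gene name that was high on C4 and T1, and Hpx, the blood haem carrier hemopexin, was low there with a step of 0.68. Hpx was well above background on only 5 arrays, so its division rests in part on values that are not measured levels. T3 alone was set apart in 450 other probes beyond those of Iqcm, among 21869 probes. Of the 450, 192 were high on T3 as Iqcm was and 258 were low there, and 7 had a step of at least 1. Those 7 went both ways. They include Tas2r113, a bitter taste receptor gene, with a step of 1.43 and Ccl19, a chemokine of lymphoid tissue, with 1.21, both high on T3. Low on T3 were a probe without a gene name, with a step of 1.3, and Crygb, with 1.09.

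The genes most like each member over the 10 arrays were found by Pearson's r among named genes with a range of at least 1 log2 unit. For each member 1427 or 1428 probes were compared, so the highest and lowest r are extreme by selection. The arrays fall into separate levels and were compared within the same libraries, so r is a description without a test. For Fam111a they were Sag (r = 0.907), Csrp3 (0.896) and Smim38 (0.887), and for Fabp12 they were Hpx (0.889), Pabir2 (0.872) and Thsd7b (0.78). Cdh8 was most like Loxl4 (0.892), Grip1 (0.885) and Pgam2 (0.833), and Oxnad1 was most like Snap91 (0.804), Kcnk13 (0.797) and RT1-T24-4 (0.76). Hpx, Pabir2 and Snap91 were well above background on only 5 arrays, Sag on 6, Thsd7b on 7 and Loxl4 on 8. Cdh8 and Oxnad1 were themselves dim on some arrays. The r values of all these genes thus rest in part on values not well above background. Sag is the arrestin of photoreceptors and Csrp3 a muscle protein. Their steps were 0.31 and 0.41 log2 units, so they did not show separate levels of the size seen in Fam111a. Iqcm was most like Rfx7 (r = 0.962), a transcription factor gene, and without T3 this r fell to -0.02, so it rests on that array alone. The most opposed genes were Pde8a for Fam111a (r = -0.776), Tmem144 for Fabp12 (-0.859), Pipox for Cdh8 (-0.835), 1700013G24Rikl for Iqcm (-0.86) and Or2d2 for Oxnad1 (-0.836). Of these, Or2d2 was well above background on 7 arrays and 1700013G24Rikl on 9.

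The nearest genes that could be read on the chromosome are given as a description. For each gene the 3 nearest named and tested genes on each side in the RefSeq order were read, 30 in all, and 0 of them divided the arrays as their neighbour among the 5 did. Such matches are rare in any probe. Of 21869 probes, 20 others shared the division of Fam111a, 88 of Fabp12, 12 of Cdh8, 450 of Iqcm and 12 of Oxnad1. So 0 of 30 cannot tell neighbours from other probes. The median step of the 30 genes was 0.15 log2 units, close to the 0.16 of all probes, and 2 had a step of at least 1. Fabp4, a fatty acid-binding protein of fat cells directly next to Fabp12, had a step of 1.24 that set C1 apart as high, and C4 and T1 were not apart. Fabp9, another member of the same cluster, had a step of 0.41 with T4 high. Dtx4 and Cntf, on either side of Fam111a, had steps of 0.21 and 0.07. The neighbours read for Cdh8 lay 19 to 28 annotated genes away, so its close surroundings were not read, and Cdh11, a cadherin of the same type among them, had a step of 0.17. Dph3, directly next to Oxnad1, had a step of 0.14. The nearest tested neighbours of Iqcm lay at least 183 annotated genes away, so its surroundings were not read, and among these Slc6a2, the noradrenaline transporter, had a step of 1.72 with T4 low.

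**Figure D5:**
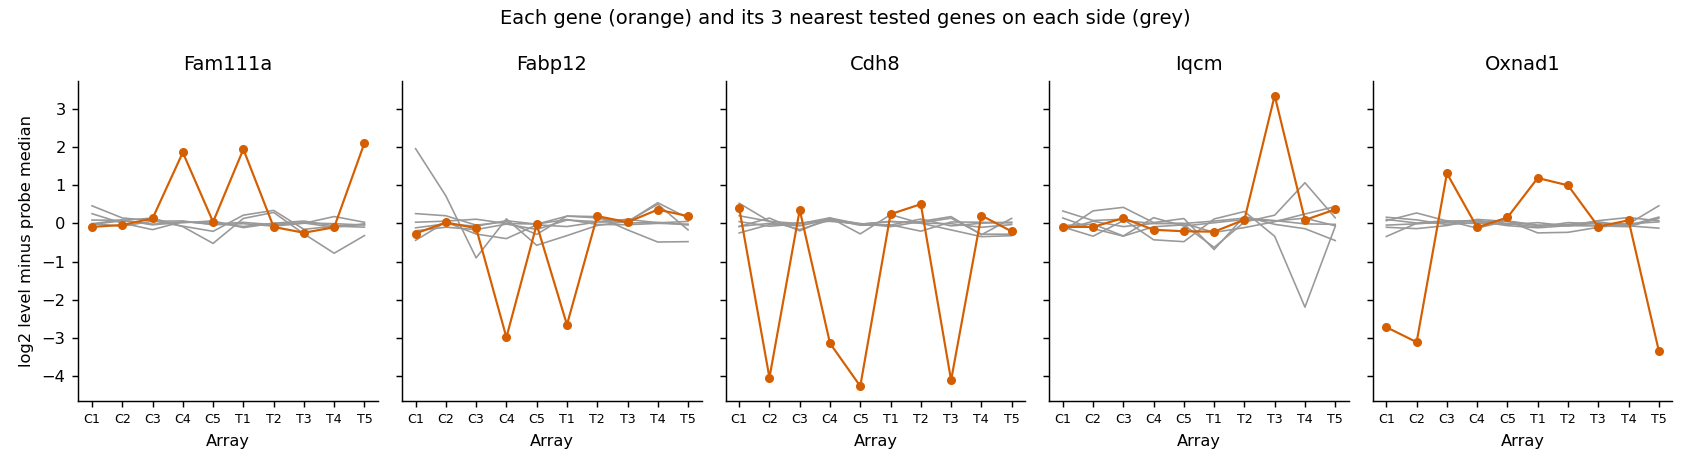
Level of each gene (orange) and of its 3 nearest named and tested genes on each side (grey) on each array, in log2 units from the probe's median. The orange lines leave the band of the grey ones on the arrays named in the text, and 0 of the 30 grey lines divide the arrays as the orange line of their panel does.

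Families of the 5 genes were read for the same pattern. Of 10 measured genes of the fatty acid and retinoid binding family, Fabp4 alone had a step of at least 1. In that family 0 genes were called between groups and 1 between slides, Rbp2, a retinol-binding protein, which was lower on slide 2 by limma (adjusted p = 0.0104). The family's median T minus C difference was 0.04 log2 units, where the median over all probes was -0.02. None of the 5 measured type II cadherins had a step of at least 1, the widest being 0.32 for Cdh6, and none was called between groups or slides. The 4 measured IQ motif genes had steps of up to 0.20, for Iqcb1, a gene of the cilium. Of 11 measured genes of the replication fork, where Fam111a acts, none had a step over 0.18, Pcna itself had 0.12, and none was called between groups or slides. Of 6 measured relatives of cytochrome b5 reductase, which resemble Oxnad1 by domain, 1 was lower on slide 2 (Cyb5r1, limma adjusted p = 0.0377) and none was called between groups. Across these lists the shares called between groups and slides stand beside the background of 0% and 11.5%.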

How the data were processed

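Total RNA of 10 samples was labelled from 100 ng, per the labels' protocols. The deposited intensity values were made by the authors with Agilent Feature Extraction, version 10.7.3.1 per the file headers and 10.7 per the submitters' processing notes. Background was thus already subtracted, and arrays were not scaled to one another. A table of the authors' processed log2 values, centred per probe (r of 0.9978 to 0.9987 with the centred scanner values; column medians of 0.0288, 0.000142, -0.0166, 0.0202 and -0.0089 for C1 to C5 and 0.00315, 0.00373, -0.00264, -0.0169 and -0.00227 for T1 to T5), was an alternative; how it was scaled is not known.

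Of 62976 spots per array, 4259 controls were left out, and 494 to 745 spots with an outlier flag were set missing. The log2 of each array's 75th percentile was subtracted, spots of a probe were averaged, and 21891 probes (72.1%) well above background on at least 5 arrays entered a two-sided test by lmFit and eBayes of limma 3.58.1 (R 4.3.3). P-values were adjusted by Benjamini-Hochberg over all tested probes, with a threshold of 0.05. No array was a copy of another, as pairwise correlations ran from 0.9899 to 0.9966. Accessions were matched without version to a RefSeq table of the GRCr8 assembly, which named 17998 probes and left 12369 unnamed. The array was designed on another build, so coordinates are given for RefSeq promoter windows only. Where a gene had several probes, that with the highest mean stood for it. The number of arrays limits the precision.

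The members, gene lists and naming rule were chosen with earlier results of these data known. The rule named the members, per member the 3 most and the 3 least similar genes and the 3 nearest tested genes on each side, and members of family lists. Genes named for sharing a division were chosen after their values were seen. Normexp was run on the median spot signal, since the files hold no mean signal, with an offset of 50. No litter or genotype entered the fits.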

Additional observations from a re-analysis of the deposited data

Results flagged for a closer look

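In 18 pairs of a sire group and a probe, the highest or lowest of 5 arrays was set against the gap expected by Dixon's limit of 0.71 of the group's range, and 8 exceeded it. Chance gives about 1 in 20, but the genes were chosen for such gaps, so the number carries no weight. C4 lay apart as the highest C array for Fam111a, at -0.90 with probe A_64_P065265 and at -0.73 with probe A_44_P304009. For Fabp12 the lowest C array was C4, at -5.94, and the lowest T array was T1, at -5.61. T3 was far below the other T arrays for Cdh8, at -9.06, which is not well above background. For Iqcm T3 was far above the other T arrays, at 0.45 with probe A_64_P124978 and at -0.44 with probe A_64_P022961. T5 was far below the other T arrays for Oxnad1, at -9.04, again not well above background.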

How the results depend on the processing

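No alternative brought a probe of the 5 genes past the threshold for groups or slides. Over the alternatives, 0 probes were called between groups in every one run, and 1776 to 2980 between slides when an array was left out. The number of arrays at the high level stayed as reported with quantile normalization, flagged spots kept, the authors' values and a 2-means division. Normexp narrowed the steps to 0.71 for Cdh8, 0.54 for Oxnad1 and 1.35 for Fabp12, which was measured on all arrays, and gave 1.54 for Fam111a and 2.81 for Iqcm. Oxnad1 then had 8 high arrays in place of 7. By probes A_64_P077896 and A_64_P249426 Iqcm had 9 high arrays. Leaving out T3 left Iqcm with 1 to 1 high array and a step of 0.23, so its level rests on that array.

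Signs turned in several T minus C differences, none past the threshold. With the sire code number as a replicate block, Fam111a (A_64_P065265) was at -0.084. Whether these numbers pair the samples is not stated in the labels. Deviations from the group mean correlated at -0.512 for C5 and T1, which lie on different slides. They correlated at 0.282 for C2 and T2 and 0.194 for C4 and T3, each pair on a shared slide. Slide was not removed first, so these values cannot decide whether the pairing is real. Within slide 1, Fabp12 was at -1.11 and Iqcm at -0.044 (A_64_P124978) and -0.16 (A_64_P022961). Within slide 2, Fam111a was at -0.36 and -0.38, Iqcm probe A_64_P077896 at 0.0052 and Oxnad1 at -1.14. Leaving out each array in turn gave T minus C from -0.28 to 0.87 for Fabp12 (lowest without C4), -0.0024 to 0.71 for Fam111a probe A_64_P065265 (lowest without T5) and -0.15 to 0.0027 for Iqcm probe A_64_P077896 (highest without T1). Ranges without a change of sign were 0.93 to 2.33 for Cdh8, 0.11 to 1.44 for Oxnad1, 0.046 to 0.93 for Fam111a probe A_44_P304009, and 0.17 to 1.06 (A_64_P124978) and 0.11 to 0.92 (A_64_P022961) for Iqcm. Slide differences ran from -0.44 to 0.71 for Fabp12 (lowest without T1), -0.0037 to 0.91 for Fam111a probe A_44_P304009 (lowest without T5) and -0.85 to 0.48 for Oxnad1 (highest without T5). The cause was not tested, apart from the fewer arrays. Signal near background leaves the low levels of Cdh8 and Oxnad1 unmeasured.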
